A study of Mus musculus with 39 samples.

Results

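Annexins are calcium-dependent proteins that bind acidic phospholipids on the inner face of cell membranes, and 9 of their genes were followed here in the subcutaneous fat of C57BL/6J mice. The genes were Anxa1, Anxa2, Anxa3, Anxa4, Anxa5, Anxa6, Anxa7, Anxa8 and Anxa11, found by their gene name on an Agilent one-colour array and measured by 13 probes on 15 of its 43803 non-control spots, which carry 29411 gene names. Anxa8 was selected on the values of these arrays, because its level was higher under the high-fat diet than under the low-fat diet at every time point that held both. That difference is therefore given as a description with no test. The other 8 genes were chosen by name as further members of the family.

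Mice weaned at 3 to 4 weeks of age were placed in 5 groups of 30 animals. LFC mice received a control diet with 10% of calories from fat, HFC mice a diet rich in fat and sucrose with 60% of calories from fat, and HF5, HF20 and HF75 mice the HFC diet with 5, 20 or 75 µg of KAL-1, an ethnobotanical formulation. The 39 arrays comprised 10 of LFC, 11 of HFC and 6 of each KAL-1 dose, with 1 array for each diet and time point. HFC alone was measured at Day 1, LFC and HFC at Day 6, Day 10, Day 14 and Week 0, and all 5 diets every 3 weeks from Week 3 to Week 18. The weeks were counted from Day 14, so that by the study's account Day 14 and Week 0 were the same time, sampled in 2 runs of the experiment. The labels give neither the sex of the mice nor the number of mice behind an array, so the spread given here is over time points and includes any change with age.

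Most annexins share a core of repeated calcium-binding domains and differ in a short amino-terminal tail, which binds partner proteins. Anxa1 carries the anti-inflammatory activity induced by glucocorticoids and acts through formyl peptide receptors, and Anxa2 forms a complex with S100a10 that binds plasminogen and its activator at the cell surface. Anxa5 binds phosphatidylserine, Anxa6 has a doubled core and is linked to cholesterol traffic, and Anxa8 is best known from stratified epithelia.

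The probes behind the results are shown so that the measured transcript can be identified. The array prints a 60-mer for each gene, and the table deposited with the arrays placed Anxa8 on chromosome 14 in band 14 B, Anxa1 in band 19 B, Anxa2 in band 9 C and Anxa6 in band 11 B1.3. The arrays gave no mapped position for the probes, so no coordinates or exons are given. Both Anxa2 probes are shown because they measured the same gene at different brightness, and only the first 30 bases of the Anxa8 probe are shown.
Anxa8: atcctctgatcgtggtctccgagcctgaag
Anxa1: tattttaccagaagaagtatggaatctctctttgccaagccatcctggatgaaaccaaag
Anxa2, brighter probe: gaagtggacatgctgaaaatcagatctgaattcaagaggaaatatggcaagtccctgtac
Anxa2, dimmer probe: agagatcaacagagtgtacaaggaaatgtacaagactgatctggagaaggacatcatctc
Anxa6: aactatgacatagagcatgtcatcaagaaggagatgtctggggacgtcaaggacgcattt
The longest run of bases that any of the 13 probes shared with a probe of another annexin was 8, so no pair of these genes was measured by near-identical probes.

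Levels are log2 intensities relative to the 75th percentile of the array, so a level of 0 equals that percentile, and levels are compared within a probe and not between probes. All 9 annexins were well above background on all 39 arrays, with 0 saturated and 0 outlier spots. The 75th percentile ranged from 108 on the LFC Week 18 array to 1285 scanner units, and 49.3% to 87.8% of spots were well above background. Across all genes the HFC Day 1 and HF75 Week 3 arrays correlated least with the others, with median Pearson coefficients of 0.825 and 0.823 over the other arrays. The HF20 Week 15 array had 4936 outlier spots against 17 to 474 on the others. At Week 12 the deposited ratios labelled HF5 matched the array labelled HF20 with r = 0.999 and those labelled HF20 matched the array labelled HF5 with r = 0.999, so the labels of these 2 arrays conflict. In the array titles HF5 of Week 12 carries a letter B after the week, where HF20, HF75 and HFC carry S. The meaning of these letters was not given. The title of LFC at Week 12 names no week. The array labels were used, and the HF5 and HF20 values were also computed with both arrays exchanged.

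The study followed how gene expression in fat developed on the 2 diets, and the first comparison sets HFC against LFC at each time point. Anxa8 was higher in HFC than in LFC at 10 of 10 time points, by 1.68 ± 1.1 on the log2 scale (SD over time points, n = 10), a geometric mean of 3.19-fold. Among the 19613 genes with a value at all 10 time points, 0.0663% were higher in HFC at every time point. Since this contrast selected Anxa8, nothing is read from that share.

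The Anxa8 level in LFC was 2.07 at Day 6, 0.66 at Day 10, -1.63 at Day 14 and -0.63 at Week 0. At Weeks 3, 6, 9, 12, 15 and 18 it was -0.65, -0.41, -0.99, 0.17, -1.43 and -2.74. The LFC values were thus highest at Day 6 and lowest at Week 18. In HFC the level was -0.59 at Day 1, 3.52 at Day 6, 2.24 at Day 10, 1.56 at Day 14 and 0.35 at Week 0. At Weeks 3 to 18 it was 2.53, 0.12, -0.02, 0.39, 0.18 and 0.30. Over Weeks 3 to 18 the SD was 0.96 in HFC and 1.01 in LFC (n = 6 each). The array farthest from its group was Week 3 in HFC and Week 18, the dimmest of the series, in LFC. Without these arrays HFC ran from -0.02 to 0.39 and LFC from -1.43 to 0.17, so the HFC arrays then lay closer together. The groups overlapped over time, since the LFC array of Day 6 exceeded 8 of the 11 HFC arrays, Day 1 included.

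**Figure D1:**
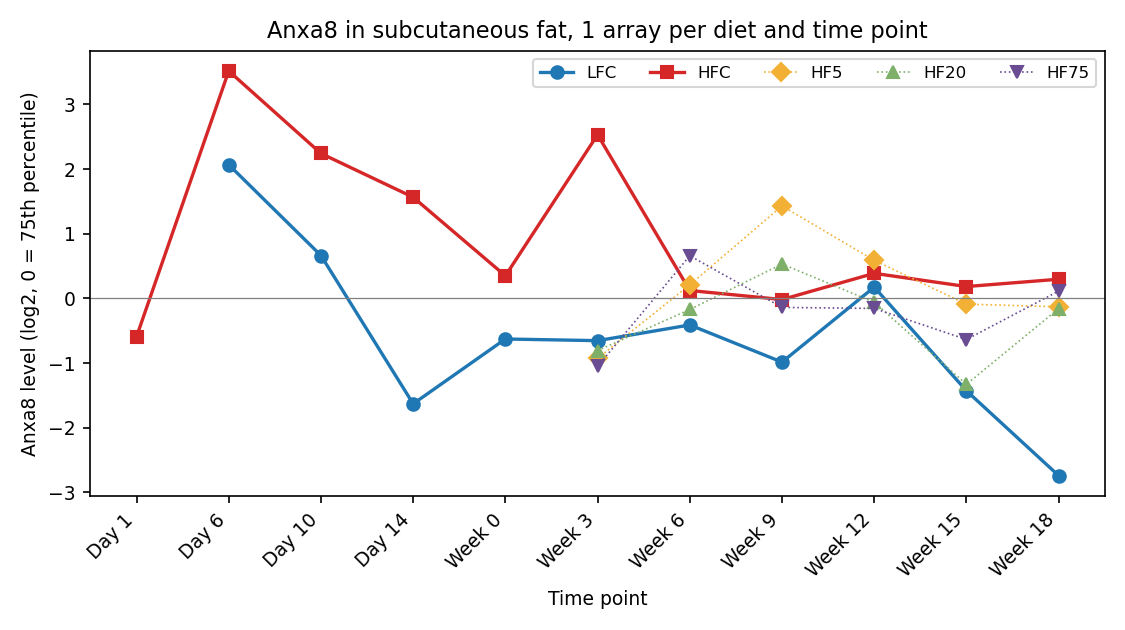
Anxa8 level (y axis, log2, 0 is the 75th percentile of the array) at each time point (x axis) in LFC, HFC and the 3 KAL-1 doses, 1 array per point. HFC lies above LFC at all 10 shared time points, with the widest gaps at Day 14, Week 3 and Week 18, and the doses lie below LFC at Week 3 (-0.93, -0.81 and -1.05).

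The size of the gap varied. It was 3.20 at Day 14, 3.19 at Week 3 and 3.04 at Week 18, each more than 8-fold. The narrowest was 0.21 at Week 12, or 1.16-fold. The mean gap was 1.80 over the 4 early time points and 1.59 over the 6 late ones. The Week 18 gap rested on the dimmest array of the series, and without Week 18 the mean was 1.52 ± 1.05 (n = 9).

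Anxa1 was the annexin with the next highest mean difference, 0.76 ± 0.97 (SD, n = 10), with HFC above LFC at 8 of the 10 time points. From Week 3 to Week 18 its HFC level was 5.51, 5.65, 5.44, 5.73, 6.16 and 5.89. The LFC level at the same weeks was 4.16, 4.82, 4.79, 4.72, 5.51 and 2.99. HFC exceeded LFC in all 6 late pairs, and the LFC array of Week 15 was the only one to reach the HFC range. Before Week 3 the sign was mixed, with -0.67 at Day 6, 0.40 at Day 10, 0.83 at Day 14 and -0.36 at Week 0. Without Week 18 the mean was 0.52 ± 0.65 (n = 9). With array quality weights the Anxa1 difference was 0.23, below that of Anxa2 (0.42), Anxa6 (0.36), Anxa5 (0.35) and Anxa4 (0.27), so its place after Anxa8 did not hold there.

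Anxa2, the partner of S100a10, differed by 0.52 ± 0.71, with HFC above LFC at 8 of 10. Its gaps were widest at Week 6 (1.48), Week 3 (1.45) and Week 18 (1.43), while Day 6 gave -0.54 and Week 12 gave -0.12. Anxa5, the phosphatidylserine-binding annexin, differed by 0.41 ± 0.57 and was also higher at 8 of 10. Its Week 18 gap of 1.79 stood well clear of the next, 0.76 at Week 3, and without Week 18 its mean was 0.26 ± 0.31. Anxa6 differed by 0.57 ± 0.63 and was higher at 7 of 10, with gaps of 1.04, 1.40 and 0.95 at Weeks 3, 6 and 9, then -0.10 and -0.06 at Weeks 12 and 15 and its widest, 1.45, at Week 18. Anxa4 had a small but even difference of 0.31 ± 0.29, higher at 9 of 10 time points, with Week 9 (-0.13) the exception. For Anxa1, Anxa2, Anxa5 and Anxa6 the SD over time points exceeded the mean difference.

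The remaining annexins had no common direction. Anxa3 differed by 0.10 ± 0.59, with HFC the higher at 6 of 10 time points, 1 of 4 early and 5 of 6 late. Anxa11 differed by 0.11 ± 0.40 with 5 of 10 higher, and Anxa7 by -0.01 ± 0.71 with 5 of 10 higher, its range running from -1.14 at Week 15 to 1.26 at Week 3. The median of the 9 annexins' mean differences was 0.41, against -0.03 over all genes. Anxa5 held that median, and it was again the middle gene without Week 18, at 0.26.

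**Figure D2:**
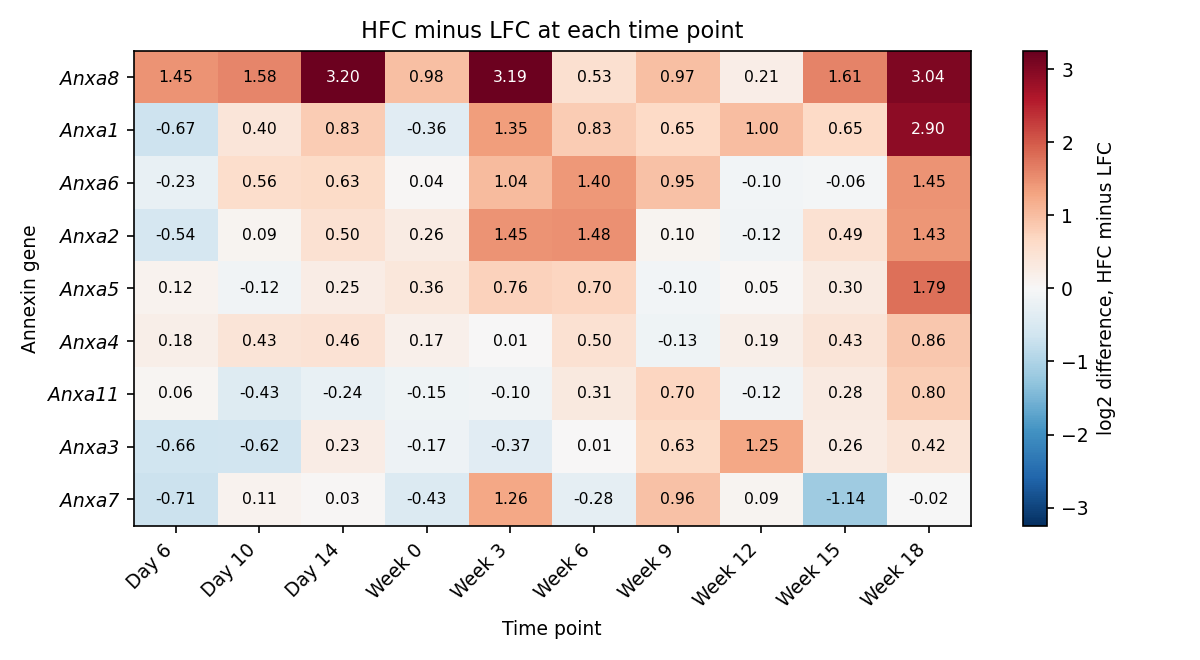
Log2 difference HFC minus LFC (colour and printed value) for each annexin (rows, ordered by their mean) at the 10 shared time points (columns). The Anxa8 row is positive throughout, Anxa4 has a single negative value at Week 9, and Week 18, whose LFC array was the dimmest, is positive for 8 of 9 genes, Anxa8 included.

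By time point, 4 of 9 annexins were higher in HFC at Day 6 and 5 of 9 at Week 0, where 50.3% and 47.2% of all genes were. At Day 14, Week 6 and Week 18 it was 8 of 9 annexins, where 48.5%, 44.3% and 58.9% of all genes were. Anxa8, higher by its selection, is one of the annexins in each of these counts. The median annexin difference was highest at Week 18, at 1.43, where the median of all genes was also raised, at 0.27. At Week 3 it was 1.04 against -0.07 over all genes.

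Probes of the same gene gave the same direction. The dimmer Anxa2 probe correlated with the brighter one with r = 0.96 over 39 arrays and had a mean HFC minus LFC difference of 0.56, higher at 7 of 10 time points. The 2 other Anxa4 probes gave 0.37 and 0.43, higher at 10 and 9 of 10 time points, so Anxa4 was higher at every time point on 1 of its 3 probes. The second Anxa6 probe gave 0.32, with r = 0.76. Anxa8, Anxa1, Anxa3, Anxa5, Anxa7 and Anxa11 each rest on a single probe.

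The KAL-1 doses were compared with HFC and LFC over Weeks 3 to 18 in a single limma fit of 30 arrays with the time point as a block, adjusted over 21090 genes by the Benjamini-Hochberg method. No annexin passed an adjusted p of 0.05 in any comparison. In each of the dose comparisons 0% of all genes passed, with 0 called by limma, so the counts at an unadjusted p of 0.05 are given beside the share of all genes. The p-values measure the spread between these arrays, which may be technical. The dose comparisons share the HFC or the LFC arrays with each other, and Anxa8 was selected on the HFC and LFC arrays, so its dose minus HFC and dose minus LFC values are not independent of that selection.

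The late Anxa8 levels, in the order of their means, were HFC 0.58 ± 0.96, HF5 0.18 ± 0.79, HF75 -0.20 ± 0.59, HF20 -0.33 ± 0.65 and LFC -1.01 ± 1.01 (SD, n = 6 each). Each neighbouring pair from HFC to HF20 differed by less than the SD of either group. HF20 and LFC, the last pair, differed by slightly more than the SD of HF20 and less than that of LFC, and their arrays overlapped. At Weeks 3 to 18 HF5 had -0.93, 0.21, 1.43, 0.59, -0.09 and -0.13. HF20 had -0.81, -0.17, 0.53, -0.06, -1.33 and -0.16. HF75 had -1.05, 0.66, -0.14, -0.16, -0.64 and 0.11. The 3 doses lay together and more than 3 log2 units below HFC at Week 3, and crossed the HFC level at other weeks.

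Anxa8 differed from HFC by -0.40 ± 0.46 (SE) in HF5, with a 95% interval of -1.35 to 0.55 and an adjusted p of 1.00. HF20 gave -0.92 ± 0.46, with an interval of -1.87 to 0.03 and an adjusted p of 0.997. HF75 gave -0.79 ± 0.46, with an interval of -1.73 to 0.16 and an adjusted p of 0.866. The doses together gave -0.70 ± 0.37, with an interval of -1.48 to 0.07, lower than HFC at 4 of 6 weeks. These differences rested on Week 3, where the HFC level of 2.53 stood far above the other late HFC arrays. In the array titles the mark after the week of this HFC array differed from that of LFC, HF5 and HF20 at Week 3. The meaning of the mark was not given. Without Week 3 the differences were 0.21 for HF5, -0.43 for HF20, -0.23 for HF75 and -0.15 for the doses together. With the Week 12 arrays exchanged, HF5 gave -0.51 and HF20 gave -0.81.

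Against LFC, Anxa8 was higher by 1.19 ± 0.46 in HF5 (5 of 6 weeks), 0.68 ± 0.46 in HF20 (4 of 6) and 0.81 ± 0.46 in HF75 (4 of 6). The low LFC levels took part in choosing Anxa8, so these values are a description. Without Week 18, where the LFC array was the dimmest of the series, they were 0.90 in HF5, 0.29 in HF20 and 0.40 in HF75, each ± 0.49. Of the other 8 annexins 0 had an unadjusted p under 0.05 against LFC in HF5, HF20 or HF75, where 2.44%, 2.85% and 3.63% of all genes had one, and limma called 0 at an adjusted p of 0.05. HF75 minus HF5, which shares no array with the selection of Anxa8, gave -0.38 ± 0.46 for that gene, with an interval of -1.33 to 0.57.

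**Figure D3:**
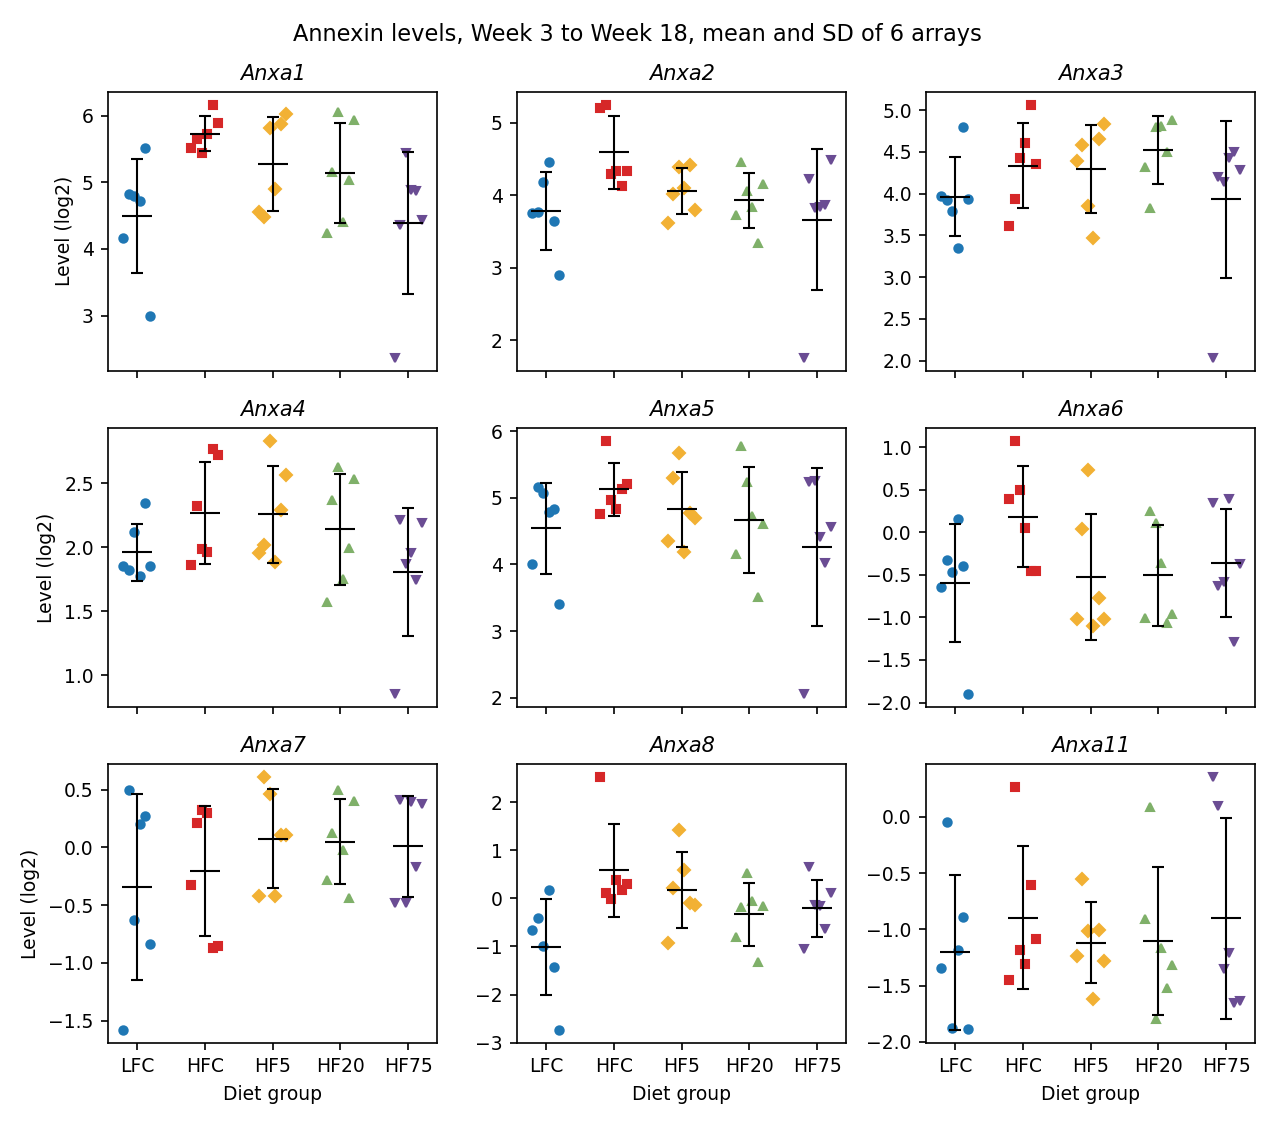
Level (y axis, log2) of each annexin in the 5 diet groups (x axis), Weeks 3 to 18 from left to right within a group, with a bar at the mean and whiskers of 1 SD (n = 6). The HF75 group holds 1 low array, Week 3, for Anxa1, Anxa2, Anxa3, Anxa4 and Anxa5, and the HFC group holds 1 high array, Week 3, for Anxa8.

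Of the other annexins, Anxa1 differed most from HFC in HF75, by -1.34 ± 0.38 (SE), with an interval of -2.13 to -0.55. It was lower than HFC at 6 of 6 weeks, with a difference of -3.15 at Week 3 and almost none at Week 9, and limma gave an unadjusted p of 0.00191 and an adjusted p of 0.866. Its HF75 levels at Weeks 3 to 18 were 2.36, 4.36, 5.44, 4.88, 4.87 and 4.44. The highest of them, at Week 9, equalled the lowest HFC array, also of Week 9, to 2 decimals, and the other 5 lay below every late HFC array.

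In HF75, Anxa2 differed from HFC by -0.93 ± 0.34, Anxa5 by -0.87 ± 0.33 and Anxa4 by -0.47 ± 0.21. With Anxa1 these made 4 of 9 annexins at an unadjusted p under 0.05, all lower, where 5.02% of all genes had one. All 4 had an adjusted p of 0.866. In HF75 minus HF5 they were Anxa1 (-0.88 ± 0.38) and Anxa4 (-0.45 ± 0.21), where 1.89% of all genes had one, both with an adjusted p of 0.994.

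In HF5 and in HF20, Anxa6 was the 1 annexin of 9 with an unadjusted p under 0.05 against HFC, at -0.71 ± 0.32 and -0.69 ± 0.32, where 1.36% and 4.3% of all genes had one. It was lower than HFC at 5 of 6 weeks in HF5 and at 6 of 6 in HF20. With the Week 12 arrays exchanged, Anxa6 was at -0.59 in HF5, where the unadjusted p was no longer under 0.05, and at -0.81 in HF20. Without Week 3 it was at -0.57 and -0.55 and no longer had an unadjusted p under 0.05 in either dose, nor did it with no block for the time point. For the doses together, 3 of 9 had one, Anxa1 at -0.80 ± 0.31, Anxa2 at -0.71 ± 0.28 and Anxa6 at -0.65 ± 0.26, where 4.51% of all genes had one. That count was 0 without Week 3 and 0 without Week 6, where 2.32% and 3.74% of all genes had one, and 5 without Week 9, where 4.54% had one. Anxa7 was the exception in direction, 0.25 ± 0.23 above HFC for the doses together, and the other 8 annexins had differences below 0. The median of the 9 was -0.54, against 0.02 over all genes. Without Week 3 the middle gene of the 9 was Anxa11, at -0.35.

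**Figure D4:**
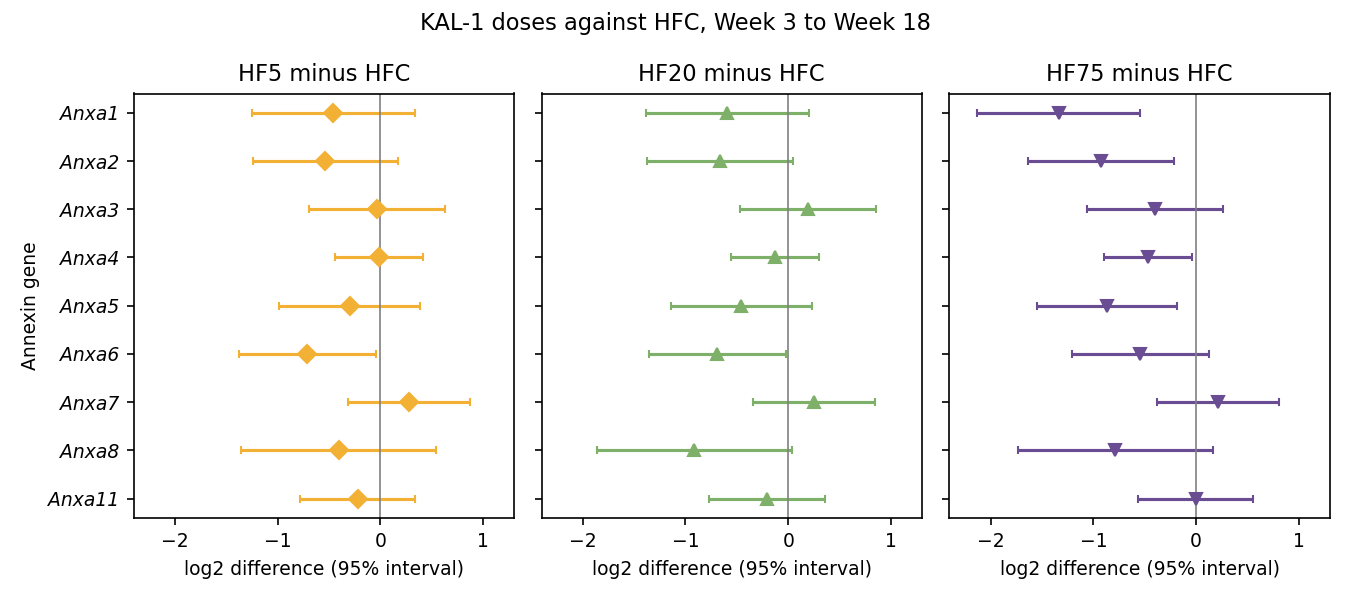
Log2 difference from HFC (x axis) of each annexin (y axis) for the 5, 20 and 75 µg doses over Weeks 3 to 18, with 95% intervals from the limma fit (6 arrays a group, not adjusted for the number of genes). The intervals of Anxa1, Anxa2, Anxa4 and Anxa5 lie below 0 in HF75, and that of Anxa6 in HF5 and HF20.

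The HF75 values rested in part on 1 array. At Week 3 the HF75 level was 2.36 for Anxa1, 1.75 for Anxa2, 2.03 for Anxa3, 0.85 for Anxa4 and 2.06 for Anxa5, each the lowest of the 6 HF75 arrays, whereas Anxa11 was the highest of its 6, at 0.36. With this array left out, 2 of 9 annexins had an unadjusted p under 0.05, Anxa1 at -1.04 ± 0.36 and Anxa6 at -0.73 ± 0.33, where 4.63% of all genes had one. Without it, Anxa2 was at -0.55 ± 0.28, Anxa5 at -0.52 ± 0.28 and Anxa4 at -0.34 ± 0.20. Without Week 3 in any diet, Anxa1 alone of the 9 had one, as did 2.68% of all genes.

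The HFC Day 1 array, which has no LFC partner and enters no paired difference or limma fit, had a like profile. Its level was 1.49 for Anxa1, 1.35 for Anxa2, 1.64 for Anxa3 and 0.24 for Anxa4, each the lowest of all 39 arrays, and 2.21 for Anxa5. Its Anxa6 level of 1.24 and its Anxa11 level of 0.79 were the highest of the 39. The 5 skeletal muscle genes (Acta1, Ckm, Myh4, Mylpf, Tnnt3) were all well above background on both arrays, with a summed level (log2 of the sum of their linear levels) of 8.57 on HFC Day 1 and 9.95 on HF75 Week 3. The median summed muscle level was 2.95 in LFC, 2.36 in HFC, 2.17 in HF5, 2.44 in HF20 and 2.85 in HF75. The 7 macrophage genes had their 2 lowest summed levels on the same arrays, 1.98 and 1.22, against group medians of 3.97 to 5.07. Mature adipocyte genes such as Adipoq, Plin1 and Fabp4 were well above background on all 39 arrays. The arrays labelled HF5 Week 12 and HFC Day 6 also had muscle levels above 8 (8.85 and 8.24), with Anxa1 at 4.90 and 4.02. The part of these tissues in the annexin values was not tested. In bulk tissue, fewer cells of a type and less RNA per cell cannot be told apart.

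**Figure D5:**
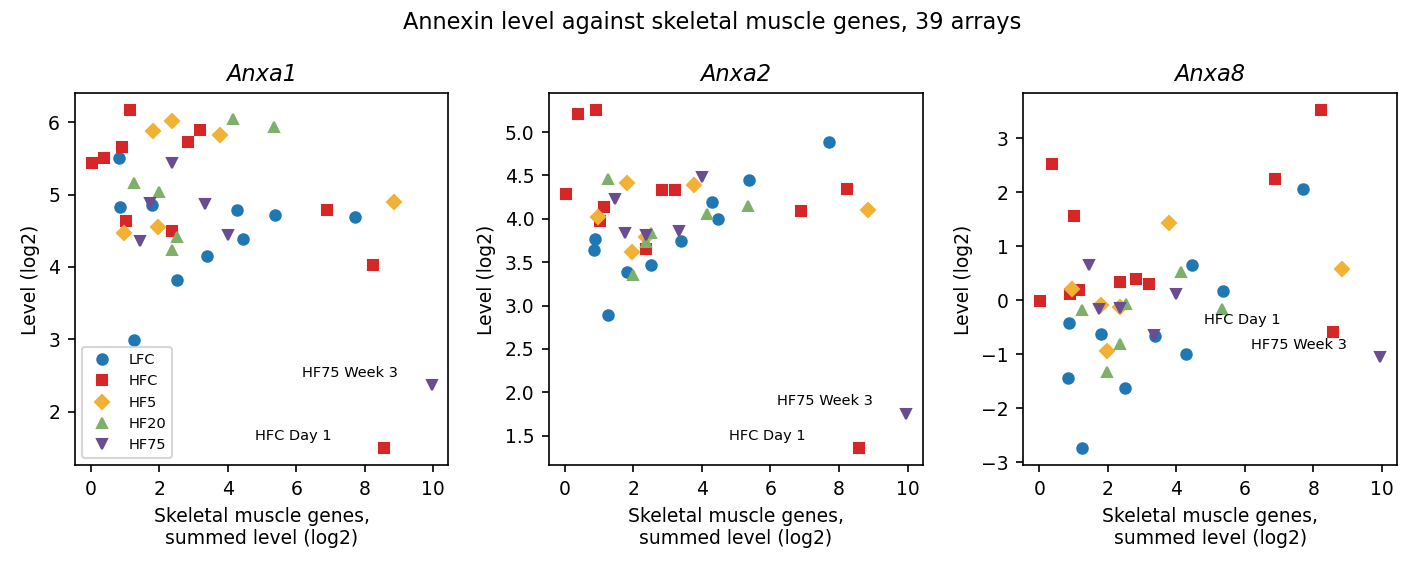
Level of Anxa1, Anxa2 and Anxa8 (y axes, log2) against the summed level of 5 skeletal muscle genes (x axis, log2) on 39 arrays, coloured by diet. HFC Day 1 and HF75 Week 3 combine high muscle levels (8.57 and 9.95) with the 2 lowest Anxa1 and Anxa2 levels, and the Anxa8 level of HFC Day 6 is high (3.52) at a muscle level of 8.24.

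Cell type markers were compared in the same way. The summed macrophage level differed by 0.71 ± 0.95 (SD), with HFC above LFC at 8 of 10 time points, and ranged from 3.33 to 5.52 in LFC and from 1.98 to 5.59 in HFC, where Day 1 was the lowest and the next was 3.68, with 6 or 7 of 7 genes well above background on each array. Anxa1 is abundant in macrophages and neutrophils. The mesothelial list differed by 1.34 ± 3.47, from -5.50 to 3.23 in LFC and from -4.40 to 4.16 in HFC, with 0 to 5 of 5 genes above background. The stratified epithelium and skin list, named for the known site of Anxa8, differed by 0.16 ± 1.05, with HFC the higher at 6 of 10 time points, from -2.65 to -0.16 in LFC and from -2.71 to -0.12 in HFC. Of its defining genes, Krt5 was well above background on 33 arrays and Krt14 on 35, and Krt1 and Dsg3 on 2 each. By gene, 6 of its 8 had a mean difference below 0, as had 54.7% of all genes tested, and Lor (0.54) and Trp63 (0.37) were above 0. Among the 6 were Krt10 at -0.91 and Krt5 at -0.53. Krt10 was well above background on 11 arrays and Krt15 on 6, so several of these differences lie near the floor. Over the 10 time points the difference of this list had r = 0.66 with that of Anxa8, beside 0.51 for the fibroblast, 0.51 for the macrophage, 0.49 for the mesothelial and -0.52 for the endothelial list, and from -0.12 to 0.11 for the other 4. Over all 39 arrays the level of the stratified epithelium list had r = -0.03 with that of Anxa8. The mature adipocyte list had 0.29, skeletal muscle 0.27, macrophage 0.26, fibroblast 0.21 and mesothelium 0.15. Simple and mammary epithelium had -0.14, lymphocyte -0.16 and endothelium -0.48. Among adipocyte genes, r was 0.41 for Adipoq, 0.42 for Cidec, 0.52 for Pnpla2 and 0.59 for Lipe and Plin1, with Fabp4 at -0.30. These are descriptions over arrays that the measures share. For simple and mammary epithelium the difference was 0.33 ± 2.50, and the milk protein gene Csn2 was above background on 0 of 39 arrays. Lists with a difference below 0 were lymphocyte (-1.19 ± 3.13, HFC higher at 4 of 10), skeletal muscle (-0.55 ± 2.19, 6 of 10) and endothelium (-0.38 ± 1.13, 3 of 10). The summed level differed by 0.08 ± 0.86 for mature adipocyte and 0.07 ± 1.15 for fibroblast genes, sums that follow their brightest genes. By gene, 5 of 6 adipocyte genes had a mean difference above 0, from 0.23 for Pnpla2 to 0.82 for Plin1. Each of these 5 was higher in HFC at only 5 or 6 of 10 time points. Fabp4 was at -0.49 and higher at 1 of 10. Of the fibroblast genes, 5 of 6 were above 0, up to 0.59 for Pdgfra (7 of 10), with Dcn at -0.04 (5 of 10). The part of these cells in the Anxa8 level was not tested.

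Over the late time points no annexin passed an adjusted p of 0.05 for a change per week in the limma fit with diet as covariate, where 0.0948% of all genes passed. At an unadjusted p under 0.05 there were 5 of 9, where 15.5% of all genes had one. The slope was 0.054 ± 0.020 log2 units per week for Anxa3 (SE), 0.054 ± 0.026 for Anxa1 and 0.034 ± 0.014 for Anxa4. It was -0.055 ± 0.022 for Anxa11 and -0.054 ± 0.022 for Anxa6, and the limma adjusted p values of these 5 genes ran from 0.210 to 0.315. The Anxa8 slope was -0.037 ± 0.028, with an adjusted p of 0.514. Without Week 3 Anxa5, Anxa6 and Anxa11 had slopes of -0.091, -0.097 and -0.084 and passed, with adjusted p values of 0.0181, 0.0200 and 0.0391, where 13.6% of all genes passed. With array quality weights Anxa1 alone of the 9 passed, with 2.84% of all genes. These fits treat the arrays of one week as independent, although they deviated together. With the time point as a random block in limma, 0 annexins passed with Week 3 or without it, where 0% and 0.0141% of all genes passed, and the adjusted p values of Anxa5, Anxa6 and Anxa11 without Week 3 were 0.148, 0.158 and 0.165. With all 6 weeks, the count at an unadjusted p under 0.05 fell from 5 to 1 of 9 annexins in that fit, Anxa11, where 5.46% of all genes had one.

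Of 21 listed genes that work with annexins, 20 were on the array. In HFC against LFC, the highest mean difference was that of Pla2g4a, the cytosolic phospholipase A2 that annexins can inhibit, at 1.03 ± 1.43 (SD, higher at 8 of 10 time points). The lowest were Trim72, a membrane repair protein of muscle, at -0.88 ± 1.21 (2 of 10) and Dysf at -0.25 ± 1.23 (5 of 10). No partner passed an adjusted p of 0.05 for any dose. In HF75 against HFC, 4 of 20 had an unadjusted p under 0.05, all lower, beside the 5.02% of all genes. Among them S100a11, the partner of Anxa1, was at -1.12 ± 0.38 (SE), S100a10 at -0.78 and the large scaffold gene Ahnak at -0.55, the last 2 being named after their values were seen. Without the HF75 Week 3 array these 3 were -0.70, -0.43 and -0.34. Then 1 of 20 partners, S100a11, had an unadjusted p under 0.05, where 4.63% of all genes had one, so the count is near that share. Among the 17 partners that the background filter kept for HF75 and HFC, the 2 highest were Fpr1, a formyl peptide receptor, at 0.94 ± 0.89 and Capn1 at 0.45 ± 0.27. Trim72 and Anxa10, which the filter left out, were at 0.97 and 2.21. Among the other annexins, Anxa9 was above background on 37 arrays, and Anxa10 and Anxa13 on 11 and 14.

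The genes whose level over the 39 arrays was most like that of Anxa8 were Gm5902 (r = 0.82), Nln, which encodes the peptidase neurolysin (0.81), Aco1, a cytosolic aconitase (0.81), Zfyve21 (0.79) and Abhd5, the coactivator of adipose triglyceride lipase (0.78). The lowest were Gm5120 (-0.78), Chd7 (-0.77) and Snapc1 (-0.76), among 20295 genes. Spearman coefficients of the first 5 were 0.66, 0.74, 0.74, 0.67 and 0.58. For the other annexins the coefficient with Anxa8 was lower, at 0.54 for Anxa2, 0.52 for Anxa6, 0.39 for Anxa5, 0.28 for Anxa7, 0.25 for Anxa1 and 0.13 for Anxa4, and -0.18 and -0.28 for Anxa3 and Anxa11. With the mean of each time point removed, over the 38 arrays other than Day 1, they were 0.63 for Anxa2, 0.61 for Anxa1, 0.59 for Anxa4, 0.54 for Anxa5 and 0.47 for Anxa6, and 0.20, 0.07 and -0.03 for Anxa7, Anxa3 and Anxa11. For the first 5 genes they were 0.78 for Gm5902, 0.74 for Nln, 0.63 for Aco1, 0.62 for Zfyve21 and 0.63 for Abhd5, so Anxa2 then lay within the range of the last 3 and Anxa1 just below it. Within the family Anxa1 and Anxa4 were most alike (0.84), then Anxa2 and Anxa5 (0.82). Without HFC Day 1 and HF75 Week 3 these were 0.69 and 0.59, and Anxa2 with Anxa5 was no longer second, since Anxa2 with Anxa6 moved from 0.11 to 0.67, Anxa5 with Anxa6 from 0.14 to 0.65 and Anxa6 with Anxa8 from 0.52 to 0.63. Anxa2 with Anxa8 was then 0.65 and Anxa3 with Anxa8 was -0.47. The arrays share time points and diets, so these coefficients are a description.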

How the data were processed

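RNA of subcutaneous fat was hybridised to Agilent one-colour arrays. Per the file headers, the deposited intensities were made with Feature Extraction 10.5.1.1, which subtracted the local background and detrended each array. The submitters' processing notes name version 9.1. The series text speaks of 3 biological replicates, and 1 array for each diet and time point was analysed. The values of the 5 Week 9 arrays had been rounded to 3 significant digits. The authors also deposited a table of log2 ratios, each array over LFC at its own time point, normalized in GeneSpring, which served as an alternative. Columns of no sample numbered 0.

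The level was log2 of the processed intensity minus the log2 75th percentile of the array. Outlier spots were left out, spots of a probe were averaged, and the probe with the highest mean stood for a gene. A gene was tested if it was well above background on 10 or more arrays of HFC and LFC, or on 6 or more arrays of Weeks 3 to 18, which left 19876 and 21090 genes. The summed level of a marker list was log2 of the sum of its genes' linear levels. limma 3.58.1 in R 4.3.3 was fitted to the 30 late arrays with diet and time point, or with week and diet, and p-values were adjusted by Benjamini-Hochberg. The fit was tested on simulated data. Arrays of one week deviated together with a median correlation of 0.23 over 60 pairs, 38 of them over 0.1, against -0.04 over 300 pairs of different weeks. All 9 annexins were named. Of the partner genes the 2 highest and 2 lowest differences were named for HFC minus LFC and for HF75 minus HFC, except for 1 gene that is not reported here, and of the genes like Anxa8 the 5 highest and 3 lowest correlations. The members and lists were chosen with earlier results of these data known. The alternatives changed background correction, normalization, filters, probes, blocks, array weights, the test and the arrays included. The exchange of the Week 12 arrays, leaving out the HF75 Week 3 or the HF20 Week 15 array, the random block of time points in the slope fit, and Anxa8 minus LFC in the doses without Week 18 were chosen after seeing the data.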

Additional observations from a re-analysis of the deposited data

Results flagged for a closer look

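Among 45 groups of arrays or differences examined, 6 held a value far from the others, where chance gives about 1 in 20 for independent groups. These groups share arrays, and the 6 values involve the HF75 array of Week 3 and the LFC array of Week 18. On the HF75 array of Week 3 the level was far below the other 5 HF75 arrays for 4 annexins. It was 2.36 for Anxa1, with the nearest HF75 array at 4.36. The level was 1.75 for Anxa2 (nearest 3.82), 2.03 for Anxa3 (nearest 4.14) and 0.85 for Anxa4 (nearest 1.75). The same array had the highest summed muscle level of the series, 9.95, and the lowest macrophage level, 1.22. At Week 18 the Anxa5 difference between HFC and LFC was 1.79, with the next highest at 0.76. The LFC level of Anxa6 at Week 18 was -1.90, with the next lowest at -0.65. The LFC array of Week 18 was the dimmest of the 39, with a 75th percentile of 108. The part of these array properties in the annexin values was not tested.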

How the results depend on the processing

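The Anxa8 difference between HFC and LFC ran from 1.29 with normexp background correction to 1.89 with the scan day as a block. Nothing is read from its sign, which the selection of Anxa8 fixed when a time point was left out, and several alternatives (the filters, the spread, the KAL-1 arrays) cannot alter this mean. A random slide block could not be fitted to it. Anxa8 HF5 minus HFC changed sign without Week 3, and leaving out 1 week at a time gave -0.77 (without Week 9) to 0.21. The number of annexins higher in HFC at every time point was 2 under quantile normalization (Anxa5 and Anxa8) and 2 with the mean of all probes (Anxa4 and Anxa8). It ran from 1 to 2 when a time point was left out, with Anxa4 added without Week 9. The annexins called in a KAL-1 comparison numbered 4 with normexp (Anxa1, Anxa2, Anxa4 and Anxa5 in HF20 minus HFC), where 8126 genes, or 38.5%, were called and the median of all genes moved from 0.05 to 0.36. With the HF20 Week 15 array also left out they numbered 2, with 38.7% of genes called. The cause was not tested. The annexins called for a change per week numbered 1 with array quality weights and 0 to 3 when a week was left out, 3 without Week 3.

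The fit reported has the time point as replicate block. With no replicate block Anxa8 again gave -0.40, -0.92 and -0.79 for HF5, HF20 and HF75 minus HFC. Each week held 1 array of each diet, so leaving out the block could alter only the p-values and not these differences. Without it 0 annexins were called, and 2 rather than 4 had an unadjusted p under 0.05 in HF75 minus HFC. The unmoderated comparison of group means called 0 annexins. With the slide as a random block the count of annexins called for a change per week was 0. With the time point as a random block, added after seeing the data, that count was also 0. Leaving out the replicate block or using the scan day in its place does not apply to that count, and the deposited ratios gave no fit per week. The count over time points is a plain difference of levels, which no choice of block can alter. With 1 array per diet and time point, the spread between mice was not measured.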

Other observations

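Anxa9, which was not among the 9 genes, differed between HFC and LFC by 0.64 ± 1.01 on the log2 scale (SD over 10 time points), with HFC higher at 7, and was well above background on 37 of 39 arrays. Of the genes most like Anxa8, Gm5902 and Zfyve21 were higher in HFC at 9 of 10 time points, by a mean of 0.38 and 0.40, and Nln and Aco1 at 8, by 0.70 and 0.64. Abhd5 was higher at 5, by a mean of 0.49. Correlations were taken over the same arrays, so these values are a description.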
